A study of Mus musculus with 12 samples.

Results

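Nuclear factor I (NFI) proteins are encoded in the mouse by Nfia, Nfib, Nfic and Nfix, and open chromatin at these 4 genes was compared between fibroblasts of the mouse embryo (MEFs) and embryonic stem cells of the mouse (mESCs). Members were all peaks overlapping the body of a gene, as annotated in GENCODE M21, or the 20 kb on either side of it. On the peak set of the BGI sequencer this gave 113 of 91354 peaks, of which 25 lay at Nfia, 27 at Nfib, 26 at Nfic and 35 at Nfix. On the peak set of the Illumina sequencer it gave 108 of 87027 peaks, of which 23, 24, 26 and 35 lay at the same loci. Every one of these peaks passed the filter on low counts and was tested.

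Omni-ATAC-seq, in which the Tn5 transposase cuts open DNA and tags it for sequencing, was applied to 6 libraries, and each library was sequenced both by BGI's DNBSEQ-G400 and by Illumina's HiSeqX10. The 3 MEF libraries, numbered 1, 2 and 4, came from fibroblast cultures sorted as THY1+, and the 3 mESC libraries, numbered 1, 3 and 5, came from stem cell cultures sorted as THY1-/SSEA1+/EPCAM+. All cells had a C57/Bl6 background, no treatment was named for either cell type, and the study describes the 3 libraries of a cell type as biological replicates. The 12 samples therefore formed 4 groups of 3, and because both instruments read the same libraries, similar values on both platforms do not come from independent samples.

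NFI proteins bind DNA as dimers, to the palindrome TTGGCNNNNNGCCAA, or more weakly to a TTGGC motif on its own, and both activate and repress transcription. In the embryo they act in cells that leave a progenitor state, with Nfia and Nfib known from glia and lung, Nfix from muscle and brain and Nfic from tooth roots. Accessible sites inside and around a gene include its promoters and candidate enhancers, and which gene such a site acts on cannot be read from ATAC-seq alone. ATAC-seq measures accessibility and not the level of the transcript or of the protein.

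The loci lay on build GRCm38 (mm10) at chr4:97772734-98118874 for Nfia, on the plus strand, at chr4:82290173-82705750 for Nfib, at chr10:81396186-81455635 for Nfic and at chr8:84699876-84800344 for Nfix, the last 3 on the minus strand. Nfib and Nfia, at 415.578 kb and 346.141 kb, were several times longer than Nfix (100.469 kb) and Nfic (59.45 kb). Of the member peaks of the BGI set, 16 lay within 1 kb of an annotated start of their own gene, 73 elsewhere in the gene body, 17 within 1 kb of a start of another gene and 7 in the remaining flanks. Genes that shared these windows included Celf5, Smim24, Dohh and Fzr1 at Nfic, and Nacc1, Trmt1, Lyl1 and Dand5 at Nfix.

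The central 240 bases of 6 peaks are shown from the plus strand of the GRCm38 genome of RefSeq. They were chosen as the peak of lowest p at Nfia and at Nfib that was higher in MEFs, the peaks of lowest p at Nfib and at Nfic that were higher in mESCs, the named peak with the most NFI sites, and the only named peak with a near match to the full palindrome. Capitals mark matches to the NFI sequence TTGGCA, the AP-1 motif TGANTCA, the TEAD motif GGAATG, on either strand, or the palindrome with 1 mismatch, and a run without capitals held no match.
Nfia +231.6 kb, higher in MEFs, chr4:98004202-98004441: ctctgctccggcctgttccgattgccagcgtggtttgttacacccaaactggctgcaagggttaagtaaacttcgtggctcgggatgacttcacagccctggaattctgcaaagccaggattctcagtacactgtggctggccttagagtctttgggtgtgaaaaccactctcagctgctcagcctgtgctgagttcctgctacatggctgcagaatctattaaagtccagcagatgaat
Nfia +154.3 kb, higher in MEFs, chr4:97926954-97927193: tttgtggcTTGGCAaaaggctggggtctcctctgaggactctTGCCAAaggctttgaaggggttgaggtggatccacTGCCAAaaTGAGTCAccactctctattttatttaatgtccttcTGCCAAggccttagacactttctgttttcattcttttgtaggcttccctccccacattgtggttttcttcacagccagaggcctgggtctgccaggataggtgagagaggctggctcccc
Nfib +153.3 kb, higher in MEFs, chr4:82552298-82552537: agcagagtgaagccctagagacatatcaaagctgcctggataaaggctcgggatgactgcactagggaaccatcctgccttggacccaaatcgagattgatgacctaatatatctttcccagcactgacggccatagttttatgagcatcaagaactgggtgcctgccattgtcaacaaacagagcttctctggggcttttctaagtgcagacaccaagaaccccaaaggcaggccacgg
Nfib +304.1 kb, higher in mESCs, chr4:82401534-82401773: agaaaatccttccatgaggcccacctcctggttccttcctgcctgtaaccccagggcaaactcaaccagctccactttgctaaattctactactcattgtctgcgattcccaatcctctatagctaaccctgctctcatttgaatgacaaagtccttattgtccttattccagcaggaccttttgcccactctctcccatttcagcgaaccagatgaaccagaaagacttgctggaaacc
Nfic -9.8 kb, higher in mESCs, chr10:81465361-81465600: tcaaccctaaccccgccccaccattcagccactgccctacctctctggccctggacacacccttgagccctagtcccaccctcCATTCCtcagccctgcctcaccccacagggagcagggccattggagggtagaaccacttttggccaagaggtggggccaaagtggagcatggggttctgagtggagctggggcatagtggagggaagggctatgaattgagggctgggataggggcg
Nfix +56.1 kb, higher in MEFs, chr8:84744084-84744323: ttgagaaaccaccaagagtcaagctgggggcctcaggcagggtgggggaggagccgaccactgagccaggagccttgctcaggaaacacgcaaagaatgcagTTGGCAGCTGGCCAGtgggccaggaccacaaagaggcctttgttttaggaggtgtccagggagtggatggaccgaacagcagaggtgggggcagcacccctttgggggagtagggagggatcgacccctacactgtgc
Distances are from the most upstream annotated start of the gene to the centre of the peak, in the direction of transcription. The Nfia +154.3 kb peak carried 4 matches to TTGGCA and 1 AP-1 match in the bases shown. The Nfix +56.1 kb peak carried the near palindrome, whose first 6 bases are a TTGGCA match.

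Depth, as reads counted in the peaks of the BGI set, ranged from 20085886 to 21662775 in the MEF and from 15860985 to 16911482 in the mESC BGI samples. Peak values are given as CPM, the reads in a peak scaled to the total reads in the peaks of the set, and fold changes as log2 of mESC over MEF, so that negative values were higher in MEFs. Promoter peaks of fibroblast genes were higher in MEFs for 9 of 10 genes, including Thy1 and Col1a2, with Pdgfra as the exception, and those of stem cell genes were higher in mESCs for 8 of 8 genes. Of the endothelial list, 3 of 4 genes had a promoter peak and none of the 3 was called (edgeR, 0 at an unadjusted p under 0.05 too), with a summed level of 28.7 to 30.9 CPM in MEFs and 27.6 to 32.2 CPM in mESCs. Of the blood list, Cd68 was the only gene of 4 with a promoter peak, at 8.12 to 14.2 CPM in MEFs and 49.7 to 57.2 CPM in mESCs, and Ptprc, Adgre1 and Itgam had none. Of the neural list, 4 of 5 promoter peaks were higher in mESCs and that of Gfap was higher in MEFs, with sums of 34.3 to 38.2 CPM and 108 to 127 CPM. On Illumina 3 were higher in mESCs and 2 in MEFs, with Pax6 at -0.45 (edgeR adjusted p = 0.003) where it was 1.38 on BGI, since another of its 7 promoter peaks had the highest level there. Neural list values moved with cell type, and their part in the results was not tested. In these bulk samples, fewer cells with an open site and less accessibility per cell cannot be told apart. The median log2 fold change was -0.08 over all peaks, and 0.00, -0.12 and -0.04 over the peaks of chromosomes 4, 8 and 10.

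The question was how accessibility at the NFI genes differed between the cell types. Among the 113 NFI locus peaks of the BGI set, 78 were higher in MEFs (69.0%) and 21 were higher in mESCs (18.6%) by edgeR's quasi-likelihood test with a Benjamini-Hochberg adjusted p under 0.05, and 14 were not called. Over all peaks tested, 43.2% were higher in MEFs and 40.9% were higher in mESCs. The median log2 fold change of the NFI locus peaks was -0.95. On the Illumina set 72 of 108 were higher in MEFs (66.7%) and 23 were higher in mESCs (21.3%), beside 42.4% and 42.1% of all peaks, and the median was -0.77. In 77 of the 113 BGI peaks all 3 MEF samples lay above all 3 mESC samples, and in 24 peaks the reverse held, as they did in 42.2% and 42.9% of all BGI peaks. Of the 113, 57 were on the authors' list of reproducible MEF peaks only, 18 on the mESC list only and 38 on both. Over all BGI peaks, 32.8% and 36.4% were on the MEF and the mESC list only. On Illumina the member counts were 50, 14 and 44. Peaks on the MEF list only entered the set by being open in MEFs, and likewise for mESCs. The calls, medians and group gaps above therefore partly describe regions chosen in that way.

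**Figure D1:**
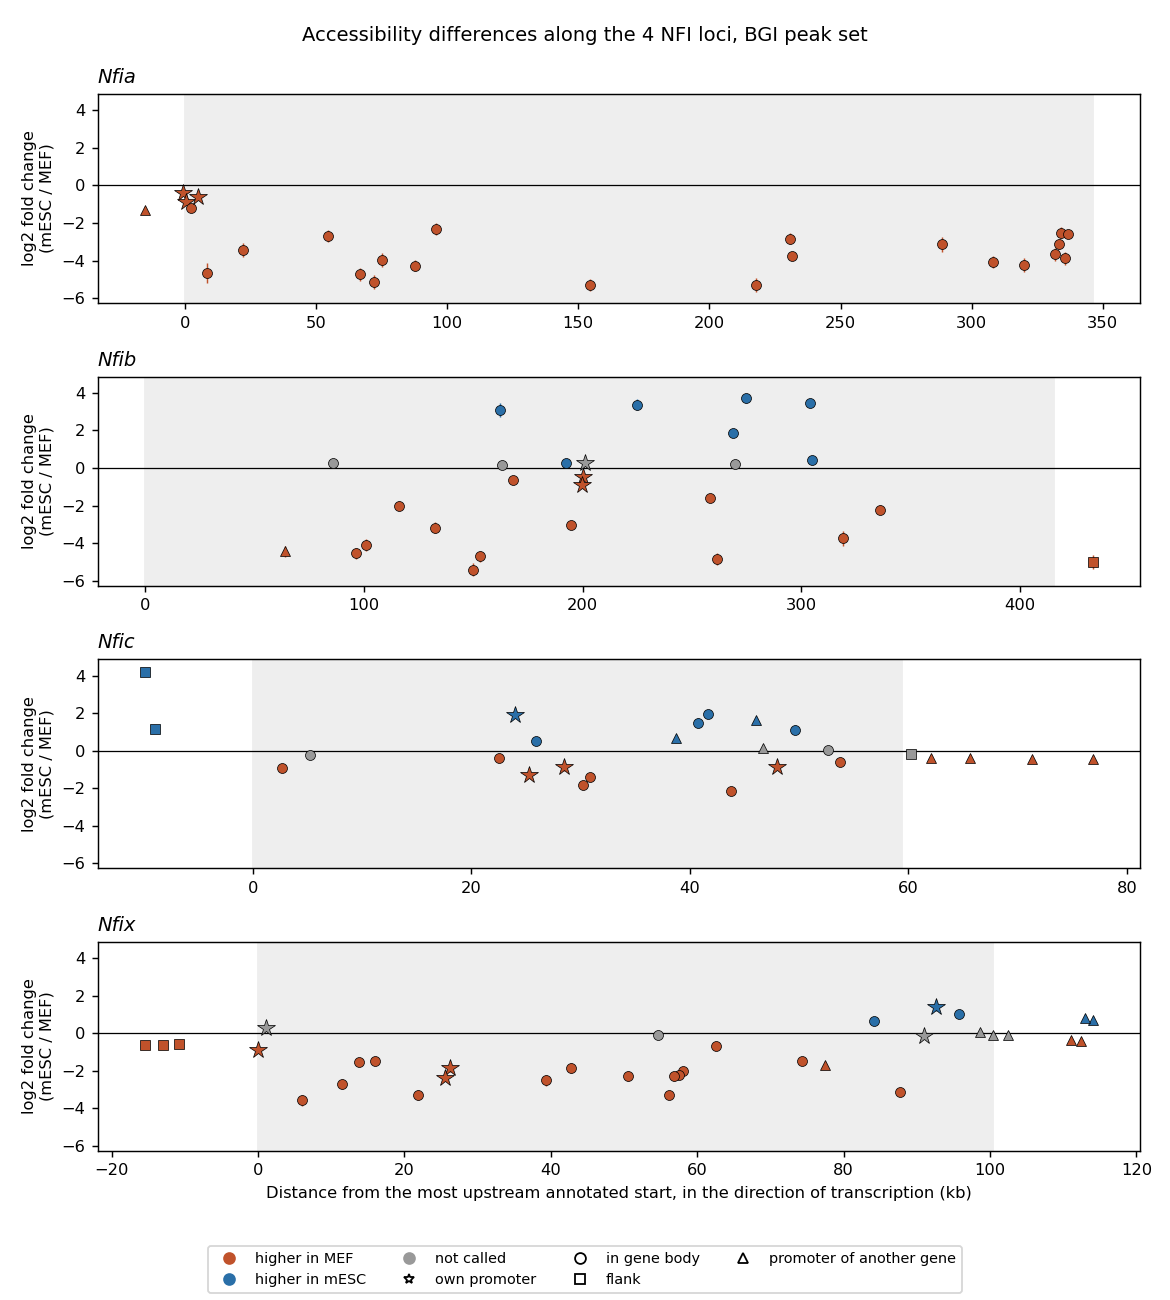
Log2 fold change (mESC over MEF, BGI samples) of each NFI locus peak against its distance in kb from the most upstream annotated start of the gene, with the gene body shaded, standard errors as bars, colours for the call and symbols for the kind of peak. All 25 peaks at Nfia lie below 0, whereas Nfib, Nfic and Nfix hold peaks on both sides of 0.

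Pooled over the 4 genes, the median difference was larger in the gene bodies than at promoters or in the flanks, but not at each gene. At Nfic the body median was -0.32 and that of its own promoters -0.87 (0.0022 and -0.89 on Illumina), and the only Nfib flank peak, at -5.01, lay below the Nfib body median of -1.12. The 73 peaks in the gene bodies had a median log2 fold change of -2.23, with 54 higher in MEFs and 13 higher in mESCs, and 40 of the 54 differed over 4-fold. Over all 4 windows 43 of the 113 peaks were over 4-fold higher in MEFs and 5 over 4-fold higher in mESCs, where 22.2% and 23.8% of all BGI peaks were. The 16 peaks at the genes' own starts had a median of -0.72, with 11 higher in MEFs and 2 higher in mESCs, and of these 11 only 1 differed over 4-fold. Introns held 71 of the members, and 54 of them (76.1%) were higher in MEFs, where 48.3% of all intronic peaks were. The median was -2.28 over these members and -0.27 over all intronic peaks. Body and promoter peaks also entered the set in different ways. At Nfia every body peak was on the MEF list only, and the promoter peaks were on both lists. The contrast of bodies and promoters describes regions chosen in that way. The 17 peaks at starts of other genes had a median of -0.37, and 9 were higher in MEFs and 4 higher in mESCs. Of all promoter peaks, 41.0% were higher in MEFs and 31.3% higher in mESCs, with a median of -0.13. The 7 flank peaks had a median of -0.58 on BGI and -0.31 on Illumina, with 4 higher in MEFs and 2 higher in mESCs on each. Over all peaks the shares were 43.2% and 40.9% on BGI and 42.4% and 42.1% on Illumina.

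Nfia, the family member best known from the switch of neural progenitors to glia, was the locus where every peak went the same way. All 25 BGI peaks were higher in MEFs, where 43.2% of all BGI peaks were. In the gene body 20 of the 21 were over 4-fold higher, where 22.2% of all BGI peaks were, and the body median was -3.76. The summed level of the 21 body peaks was 191, 189 and 218 CPM in MEFs 1, 2 and 4 and 22.8, 19.6 and 20.1 CPM in mESCs 1, 3 and 5, which is 199 ± 15.9 against 20.8 ± 1.73 CPM (SD, n = 3) or 9.56-fold higher in MEFs. All 21 were on the authors' list of reproducible MEF peaks and 0 on the mESC list, so these regions entered the set by being open in MEFs, and the ratio and the gap between the groups are descriptions of regions chosen in that way. On the Illumina set the 18 body peaks summed to 161 ± 5.32 CPM in MEFs and 14.2 ± 1.08 CPM in mESCs (SD, n = 3), which is 11.4-fold, again over peaks of which 18 were on the MEF list and 1 on the mESC list.

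The Nfia promoters stood apart from the gene body. The peak with the highest level, 448 bases upstream of the first start at chr4:97772036-97772537, had 42.6, 43.6 and 45.6 CPM in MEFs and 34.5, 37.1 and 33.3 CPM in mESCs. It was open in both cell types, and the groups did not overlap. Its log2 fold change was -0.39 ± 0.091 (SE, edgeR adjusted p = 0.000652). The other 2 promoter peaks had log2 fold changes of -0.89 and -0.59, so that all 3 were under 2-fold. The summed promoter level was 67.2 ± 3.56 CPM in MEFs and 49.1 ± 3.52 CPM in mESCs (SD, n = 3). The only Nfia peak not called on Illumina was a further promoter peak 6.0 kb into the gene (log2 fold change -0.08, edgeR adjusted p = 0.666), which had no counterpart in the BGI set.

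The 3 Nfia peaks of lowest p lay in introns of the gene. Like all Nfia body peaks of the BGI set they were on the MEF list only. Their fold changes and p-values therefore describe regions chosen by being open in MEFs. At +231.6 kb (chr4:98004071-98004572) the level was 22.1, 26.9 and 23.8 CPM in MEFs and 2.58, 1.54 and 1.49 CPM in mESCs. It was the most accessible Nfia body peak in MEFs, and its log2 fold change was -3.76 ± 0.195 (SE, edgeR adjusted p = 1.24e-11). At +154.3 kb (chr4:97926823-97927324), the peak with 5 matches to TTGGCA in the central window searched for motifs, the level was 10.6, 9.99 and 10.007 CPM in MEFs and 0.189, 0.473 and 0.124 CPM in mESCs. Its log2 fold change was -5.29 ± 0.335 (edgeR adjusted p = 1.35e-10) on BGI and -5.37 on Illumina. At +87.9 kb (chr4:97860351-97860852) the level was 12.3, 12.03 and 9.76 CPM in MEFs and 0.378, 0.591 and 0.870 CPM in mESCs, with a log2 fold change of -4.27. At the last 2 peaks the mESC samples held between 2 and 14 reads each.

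The authors also called peaks in each sample alone, and since a peak entered the set by being called in a cell type, these calls describe the members and are no separate support. A summit was called in 21 of the 21 Nfia body peaks in each MEF sample on BGI, and in 3, 2 and 1 of them in mESCs 1, 3 and 5. At the 3 Nfia promoter peaks a summit was called in all 6 samples. In the lists of reproducible peaks, 22 of the 25 Nfia peaks were on the MEF list only, 3 were on both lists and 0 were on the mESC list only. Of all BGI peaks, 32.8% were on the MEF list only and 36.4% on the mESC list only.

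**Figure D2:**
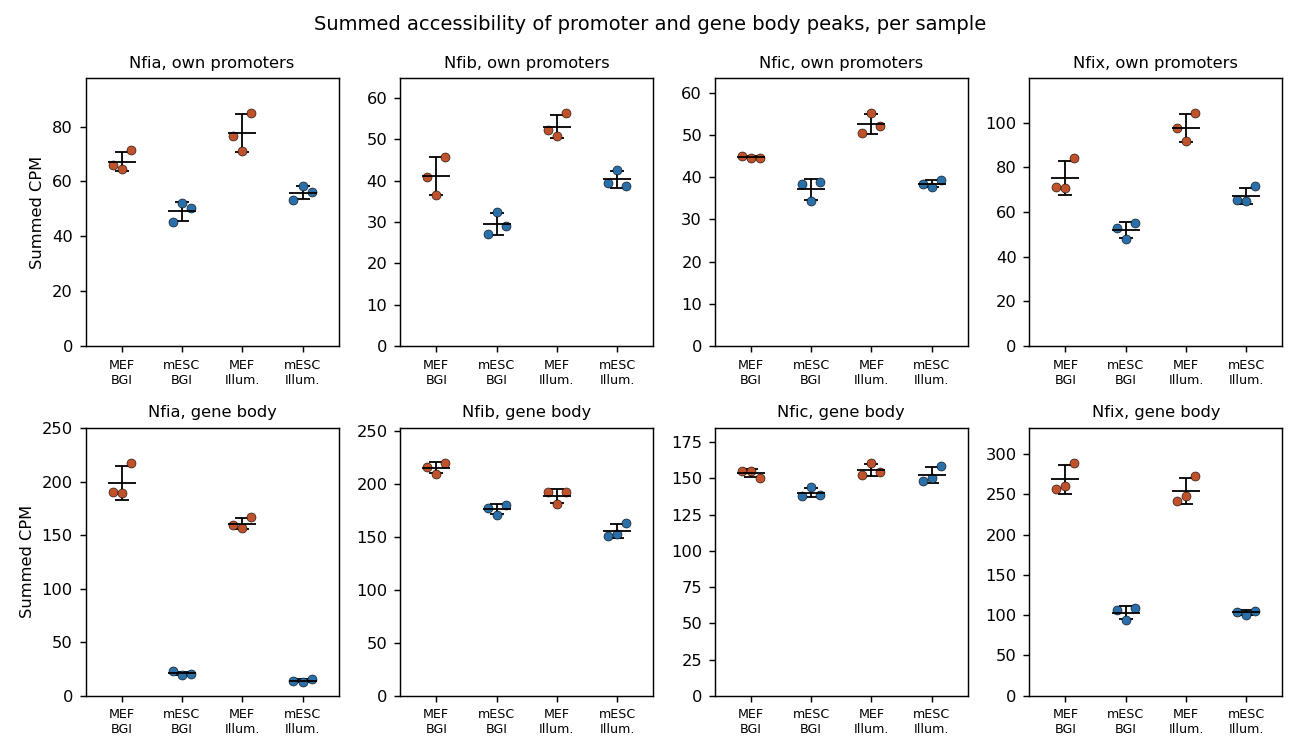
Summed CPM of the peaks at the gene's own starts (top row) and of the other gene body peaks (bottom row) for each NFI gene, with a point per sample and the mean and SD of 3 samples as lines, in MEFs (orange) and mESCs (blue) on BGI and Illumina. The Nfia body peaks fall from 199 to 20.8 CPM between MEFs and mESCs on BGI, while its promoter peaks go from 67.2 to 49.1 CPM.

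Nfib, which acts beside Nfia in lung and forebrain development, held peaks that differed strongly in both directions. Of 27 BGI peaks, 16 were higher in MEFs, 7 were higher in mESCs and 4 were not called, shares of 59.3% and 25.9% beside 43.2% and 40.9% of all peaks. All 7 that were higher in mESCs lay in the gene body, in introns, and 4 of the 22 body peaks were over 4-fold higher in mESCs and 9 over 4-fold higher in MEFs, beside 23.8% and 22.2% of all peaks, so the count for mESCs was not above that of peaks in general. The summed body level was 217, 210 and 220 CPM in MEFs and 177, 171 and 181 CPM in mESCs, a ratio of 1.22. Most of these regions were on the reproducible list of 1 cell type only, so the sums and their ratio describe regions chosen in that way.

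The most upstream annotated start of Nfib had no peak within 1 kb in either peak set. Its 3 promoter peaks clustered 199.6 to 201.2 kb downstream, at a group of starts shared by 10 of the 12 annotated transcripts. The highest of them (chr4:82505902-82506403) had 23.9, 22.7 and 26.2 CPM in MEFs and 12.04, 14.01 and 14.1 CPM in mESCs. All MEF samples lay above all mESC samples there, and the log2 fold change was -0.92 ± 0.120 (SE, edgeR adjusted p = 1.22e-06). The other 2 had log2 fold changes of -0.48 and 0.27, and the last was not called.

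Among the Nfib peaks higher in MEFs, the +153.3 kb peak (chr4:82552167-82552668) had 10.9, 11.5 and 8.61 CPM in MEFs and 0.504, 0.355 and 0.373 CPM in mESCs. Its log2 fold change was -4.71 ± 0.292 on BGI and -3.92 ± 0.287 on Illumina (SE). The +149.7 kb peak (chr4:82555783-82556284) had 15.5, 15.1 and 25.6 CPM in MEFs and 0.757, 0.473 and 0.124 CPM in mESCs. This was the lowest log2 fold change of all members, at -5.42 ± 0.338 (edgeR adjusted p = 1.12e-10), and MEF 4 stood above the other MEF samples. The +96.3 kb peak had a log2 fold change of -4.55 on BGI and -6.10 on Illumina, the largest gap between platforms among the matched peaks. The +149.7 kb peak was at -6.29 on Illumina. These named peaks were on the MEF list only and were picked by lowest p. Their fold changes and p-values describe regions that entered the set by being open in MEFs.

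The 3 Nfib peaks of lowest p that were higher in mESCs lay downstream of the clustered starts. Another that differed over 4-fold, at +162.2 kb (log2 fold change 3.07), lay upstream of these starts and had no counterpart in the Illumina set. The +304.1 kb peak (chr4:82401403-82401904) had 0.877, 1.69 and 1.39 CPM in MEFs and 14.9, 15.7 and 15.3 CPM in mESCs (log2 fold change 3.47 ± 0.221, SE, edgeR adjusted p = 1.49e-10). The +274.8 kb peak (chr4:82430689-82431190) had 1.38, 0.646 and 0.896 CPM in MEFs and 12.9, 14.4 and 13.6 CPM in mESCs, with a log2 fold change of 3.72 ± 0.248. The +224.9 kb peak had a log2 fold change of 3.37 ± 0.295. Each of the 3 was also higher in mESCs on Illumina, with log2 fold changes of 3.22, 3.30 and 3.33. All 3 were on the mESC list only, so their fold changes and p-values describe regions chosen by being open in mESCs. Within the same 100 kb of intron lay the +261 kb peak, at 14.7, 13.1 and 7.92 CPM in MEFs and 0.378, 0.296 and 0.621 CPM in mESCs, so sites of opposite direction alternated there. Of the 27 Nfib peaks, 14 were on the MEF list of reproducible peaks only, 7 on the mESC list only and 6 on both, beside the same 32.8% and 36.4% of all peaks.

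**Figure D3:**
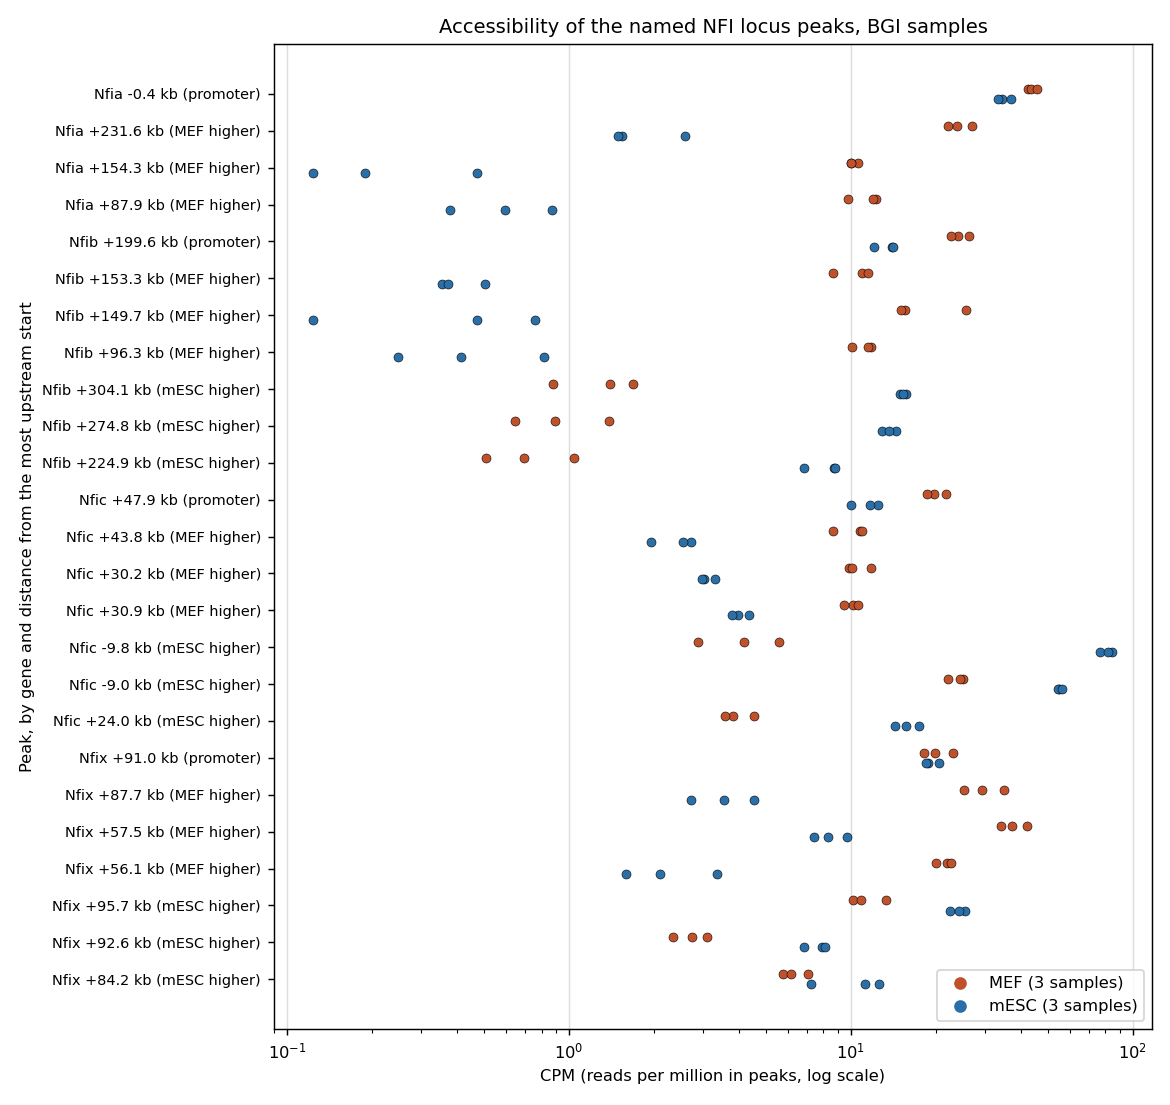
CPM of each named peak in the 3 MEF (orange) and 3 mESC (blue) BGI samples, on a log axis, with peaks named by gene and distance in kb from the most upstream start. The groups are separate for all peaks but the Nfix promoter at +91.0 kb, and the Nfia and Nfib promoter peaks differ less than the other named peaks of these 2 genes.

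Nfix, the member that drives fetal muscle genes, had more peaks higher in MEFs than in mESCs. Of 35 BGI peaks, 24 were higher in MEFs, 5 higher in mESCs and 6 not called, shares of 68.6% and 14.3% beside the 43.2% and 40.9%. In the gene body the counts were 15, 2 and 1 of 18. The summed body level was 268 ± 17.7 CPM in MEFs and 103 ± 8.32 CPM in mESCs (SD, n = 3), or 2.60-fold higher in MEFs. Of the 18 body peaks, 10 were over 4-fold higher in MEFs, beside 22.2% of all peaks. On the lists of reproducible peaks, 11 of the 18 were on the MEF list only, so the summed levels and their ratio describe regions that mostly entered the set by being open in MEFs. A summit was called in 18 of 18 body peaks in each MEF sample and in 13, 11 and 12 of them in the mESC samples.

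Several high Nfix body peaks lay together in an intron. The +57.5 kb peak (chr8:84742544-84743045) had 37.4, 34.1 and 42.3 CPM in MEFs and 8.32, 7.39 and 9.69 CPM in mESCs, with a log2 fold change of -2.23 ± 0.126 (SE) and an adjusted p by edgeR of 3.21e-11. The +56.1 kb peak (chr8:84743953-84744454), which holds the near palindrome printed above, had 21.9, 20.1 and 22.7 CPM in MEFs and 3.34, 1.597 and 2.11 CPM in mESCs, with a log2 fold change of -3.27 ± 0.203. At both, all MEF samples lay above all mESC samples. The +87.7 kb peak (chr8:84712380-84712881) lay apart from that group. It had 29.2, 25.3 and 35.0 CPM in MEFs and 2.71, 3.55 and 4.53 CPM in mESCs, and a log2 fold change of -3.12 ± 0.175.

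The starts of Nfix differed from each other. At the most upstream start the peak at chr8:84800129-84800630 was higher in MEFs (log2 fold change -0.87), and its neighbour 1.12 kb into the gene had a value of 0.29 that was not called. At the starts near +26 kb, 2 peaks were higher in MEFs, with log2 fold changes of -2.39 and -1.86, the largest of any promoter peaks of the family that were called in that direction. Near the starts of 2 processed transcripts towards the end of the gene, the +91.0 kb peak had 19.9, 18.2 and 23.1 CPM in MEFs and 18.7, 18.5 and 20.6 CPM in mESCs. The samples overlapped there, and its log2 fold change was -0.15 ± 0.118 (SE, edgeR adjusted p = 0.248). At the same end, 2 exonic or promoter peaks were higher in mESCs on both platforms, at +95.7 kb (log2 fold change 0.998, in a stretch shared with Lyl1) and at +92.6 kb (1.41). A further exonic peak at +84.2 kb, at 5.72, 7.06 and 6.12 CPM in MEFs and 11.2, 7.21 and 12.5 CPM in mESCs, was called on BGI (0.64, edgeR adjusted p = 0.0072). It was not called without mESC 5 (0.49, edgeR adjusted p = 0.0657). Its match on Illumina, a partly overlapping peak at chr8:84716106-84716607, was not called either (0.02, edgeR adjusted p = 0.921).

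Nfic, the most broadly expressed member and the one needed for tooth roots, was the locus whose calls lay nearest to those of all peaks. Of 26 BGI peaks, 13 were higher in MEFs (50%), 9 higher in mESCs (34.6%) and 4 not called, beside 43.2% and 40.9% of all peaks. On Illumina the shares were 42.3% and 38.5%, beside 42.4% and 42.1%. The summed body level was 154 ± 2.66 CPM in MEFs and 140 ± 3.12 CPM in mESCs (SD, n = 3), and 156 ± 4.33 against 152 ± 5.73 CPM on Illumina. The most upstream start, like that of Nfib, had no peak within 1 kb. The promoter peak of highest level, 47.9 kb downstream (chr10:81407461-81407962), had 19.8, 21.7 and 18.6 CPM in MEFs and 12.5, 9.99 and 11.7 CPM in mESCs, with a log2 fold change of -0.88 ± 0.133 (SE) and an adjusted p by edgeR of 8.12e-06.

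Peaks of both directions lay close together in Nfic. Around the start 24.63 kb into the gene, the +24.0 kb peak had 3.83, 4.52 and 3.58 CPM in MEFs and 15.7, 14.4 and 17.4 CPM in mESCs (log2 fold change 1.92 ± 0.170, SE). The +25.2 kb peak had 15.003, 10.4 and 16.03 CPM in MEFs and 5.74, 6.21 and 5.84 CPM in mESCs (-1.28 ± 0.182). The groups did not overlap at either peak. The +43.8 kb peak (chr10:81411610-81412111), with 2 TTGGCA matches, had 8.63, 10.8 and 10.95 CPM in MEFs and 1.95, 2.72 and 2.55 CPM in mESCs (-2.13 ± 0.215), and was the only Nfic peak over 4-fold higher in MEFs.

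The highest fold change in favour of mESCs in any of the 4 windows lay outside the NFI genes. The -9.8 kb peak (chr10:81465230-81465731), in an intron of Celf5, a gene for a neuronal RNA-binding protein, had 2.86, 5.57 and 4.18 CPM in MEFs and 76.8, 84.7 and 82.0 CPM in mESCs. Its log2 fold change was 4.21 ± 0.154 on BGI (SE, edgeR adjusted p = 2.89e-13) and 4.17 on Illumina. A neighbouring peak over an exon of Celf5 had 25.0, 24.4 and 22.1 CPM in MEFs and 54.9, 54.2 and 56.0 CPM in mESCs (log2 fold change 1.14). Without the flanks, 4 of the 12 Nfic body peaks (33.3%) were higher in mESCs, with log2 fold changes of 0.52 to 1.96, and 6 (50%) were higher in MEFs. Over all BGI peaks these shares were 40.9% and 43.2%, so the count for mESCs was not above that of peaks in general.

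The DNA sequence of the members was searched in a window of equal length at the centre of each peak, which left out 1 base of the 502 in each member. The full NFI palindrome was found in 0 of 113 NFI locus peaks and in 0.0526% of all peaks, and with 1 mismatch it was found in 1 (0.885%) and in 1.73%. TTGGCA was found in 29 members (25.7%) and in 22.8% of all peaks. It was in 29.5% of the members higher in MEFs and 14.3% of those higher in mESCs, where the shares over all peaks were 26.5% and 20.1%. The AP-1 motif, bound by FOS and JUN proteins, was in 21.8% of the members higher in MEFs and in 35.6% of all peaks higher in MEFs, and the TEAD motif was in 24.4% and 37.3%. Of the 21 members higher in mESCs, 5 held the AP-1 motif (23.8%) and 2 the TEAD motif (9.52%), beside 18.6% and 29.0% of all peaks higher in mESCs. The octamer ATGCAAAT, bound by POU factors, was in 2 members (1.77%) and the ESRRB motif TCAAGGTCA in 0, beside 3.21% and 1.42% of all peaks. A match here is a run of letters and not a measured binding site.

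Genes linked to NFI factors in the textbook literature were read at their promoters. Of 15 such genes, 13 had a promoter peak in the BGI set, and 7 of these were higher in MEFs, 2 higher in mESCs and 4 not called, with a median log2 fold change of -0.46. Over all promoter peaks 41.0% were higher in MEFs and 31.3% higher in mESCs. The brain fatty acid binding protein gene Fabp7, which had no promoter peak on Illumina, differed most on BGI (4.83 ± 0.571 CPM in MEFs, 1.77 ± 0.261 CPM in mESCs, SD, n = 3, log2 fold change -1.51). The other 6 that were higher in MEFs differed by under 2-fold, among them Gfap, the astrocyte filament gene that is also on the neural list (-0.47), the transcription factor genes Sox9 (-0.73), Hes1 (-0.46), Bbx (-0.51) and Nfatc4 (-0.58), and the muscle creatine kinase gene Ckm (-0.57). The adhesion gene Cntn2 (0.63) and the cell cycle inhibitor gene Cdkn1a (0.39) were higher in mESCs. Dspp and Gabra6 had no promoter peak. On Illumina 12 genes had one, with 5 higher in MEFs and 3 higher in mESCs and a median of -0.13, where 42.4% and 31.6% of all promoter peaks were higher in each, so the share higher in MEFs was close to that of promoters in general. Ckm was then among the latter (1.98), since another of its 2 promoter peaks had the highest level there.

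The same libraries read on both platforms gave close values at the NFI loci. Of the 113 BGI and 108 Illumina peaks, 98 matched with at least 50% overlap, 92 of these had the same call and 0 had opposite calls. The median difference in log2 fold change was 0.16 in size, and the largest was 1.55. The 6 with differing calls were called on 1 platform only, and they were 3 Nfib peaks, 1 Nfic peak and 2 Nfix peaks. The interaction of platform and cell type was called at 0 of the 113 peaks (edgeR, 6 at an unadjusted p under 0.05), as it was at 0.0% of all peaks. With the library as a block it was called at 0 of 113 (edgeR, 15 unadjusted) and at 0.386% of all peaks, and the lowest adjusted p among the members was 0.0537.

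**Figure D4:**
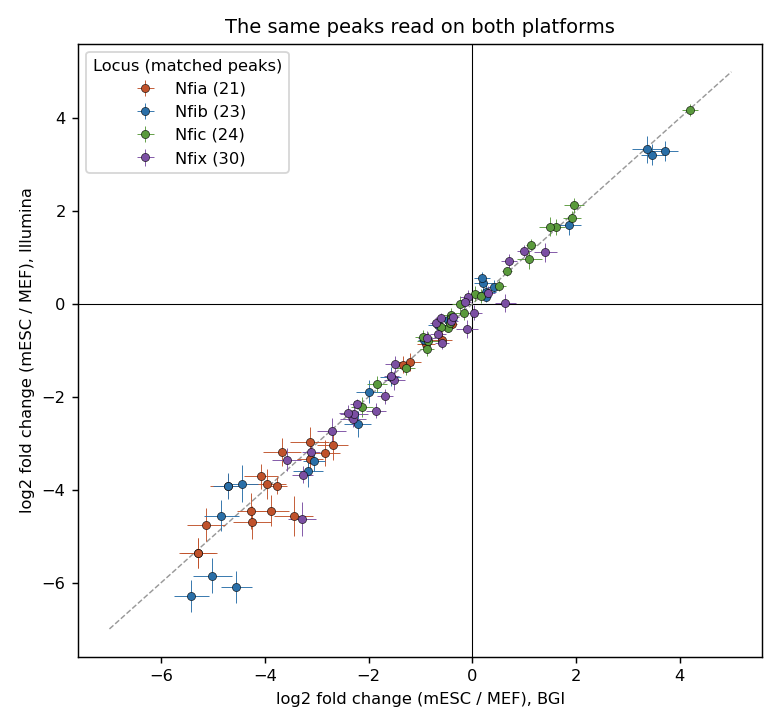
Log2 fold change (mESC over MEF) of the 98 matched NFI locus peaks on Illumina against BGI, with standard errors as bars, the line of equality dashed and colours for the locus. The points follow the line, and none has called values of opposite sign.

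Accessibility of the same library on BGI against Illumina was compared within each cell type, on peaks of both platforms. Of 104 NFI locus peaks of the MEF set, 4 were called, all lower on BGI, where 4.06% of all peaks were called. Of 68 peaks of the mESC set, 3 were called, again all lower on BGI, where 3.23% of all peaks were called. With the library number as a block, 24 of 104 (9 higher and 15 lower on BGI) and 21 of 68 (2 higher and 19 lower) were called, beside 29.2% and 21.3% of all peaks. With a GC content offset added to the block, 10 were called in each set, 6 and 5 of them higher on BGI, beside 12.7% of all peaks in the MEF set and 8.66% in the mESC set. Leaving out a library changed the counts without a block, to 0 without MEF 1 or MEF 2 (edgeR, 9 and 8 at an unadjusted p under 0.05), 13 without MEF 4, 0 without mESC 1 or mESC 5 (edgeR, 10 and 6 unadjusted) and 1 without mESC 3. All 7 peaks of the fit without a block lay at promoters, with a GC content of 65.0% to 83.3%.

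The Nfix promoter had the lowest p in both cell types. In MEFs the peak at chr8:84799546-84800047, with a GC content of 80.9%, had 6.33, 5.10 and 7.14 CPM on BGI and 13.5, 12.5 and 12.9 CPM on Illumina (log2 ratio -1.09 ± 0.156, SE, edgeR adjusted p = 0.00845). In mESCs the peak at chr8:84799945-84800446, with a GC content of 83.3%, had 4.97, 5.05 and 4.201 CPM on BGI and 10.9, 10.3 and 10.6 CPM on Illumina (-1.21 ± 0.152, edgeR adjusted p = 0.00312). The platforms did not overlap at either peak. With the block and GC offset the log2 ratios were -0.38 (edgeR adjusted p = 0.0079) and -0.45 (edgeR adjusted p = 0.00504). The BGI set used for mESC against MEF held no peak over the first of these positions and the Illumina set did, at 6 and 7 Nfix promoter peaks. Among the peaks with a higher level on BGI, the lowest p was at Nfix in both cell types, at 0.30 in MEFs (edgeR adjusted p = 0.137) and 0.25 in mESCs (edgeR adjusted p = 0.272), and neither was called without the block. The median log2 ratio of members with a GC content under 50% was 0.11 in MEFs (n = 36) and 0.12 in mESCs (n = 13), and of members at 60% or above it was -0.24 (n = 27) and -0.25 (n = 22).

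**Figure D5:**
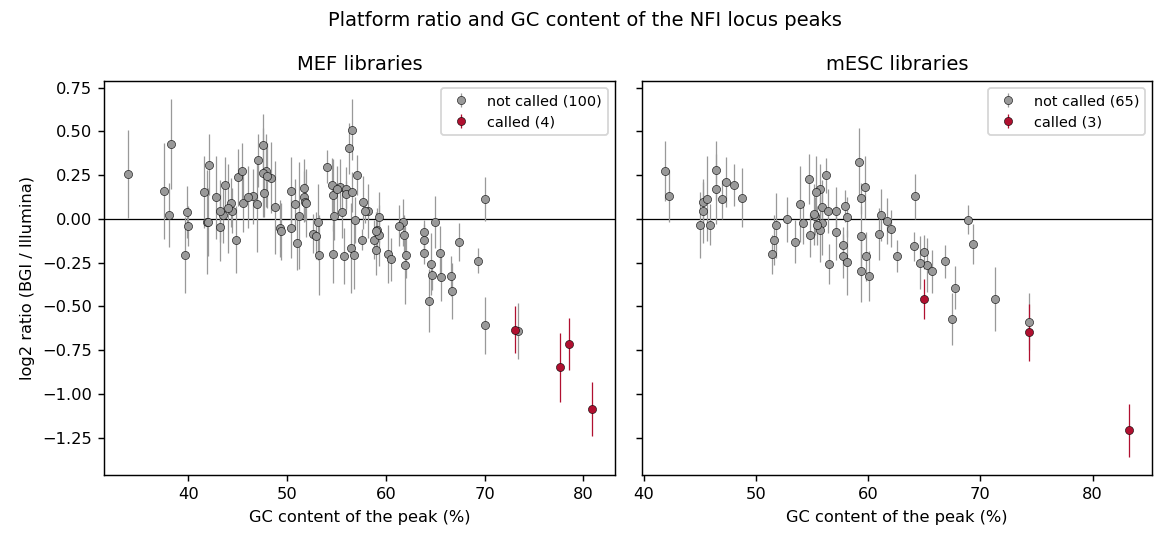
Log2 ratio of BGI over Illumina against the GC content of the peak in percent, for the NFI locus peaks of the MEF set (104 peaks, left) and of the mESC set (68 peaks, right), with standard errors as bars and the called peaks in red. Peaks of low GC content lie around or above 0, and the lowest ratios, -1.09 and -1.21, belong to the peaks of highest GC content.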

How the data were processed

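The NFI loci and the gene lists were chosen with earlier results of these data known. Omni-ATAC-seq reads of 12 samples (6 libraries, 2 platforms) were aligned by the authors to GRCm38 (mm10), filtered and down-sampled per cell type, and peaks were called in each sample with MACS2, named in the submitters' processing notes. The deposited tables hold raw counts of reads per peak from the authors, without normalization. The authors' per-sample peak files give a −log10 p-value and the fold enrichment of each summit, and their lists of reproducible peaks give positions. Columns without a BGI suffix were read as Illumina. The number of per-sample columns left unused was 0.

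Counts were fitted over all peaks of a table with edgeR 4.0.16 (R 4.3.3; TMM, filterByExpr, quasi-likelihood F test, two-sided, adjusted p under 0.05), and DESeq2 1.42.0 was an alternative. The fits were tested on simulated data. Promoters were peaks within 1 kb of a GENCODE M21 start. GC content and motifs (both strands) were read from RefSeq's GRCm38 genome. Named were, per gene, the promoter peak of highest level and the 3 called peaks of lowest p in each direction, not at another gene's start. Library numbers pair the platforms: after removal of group means, MEF samples of the same library correlated at r = 0.618 to 0.837 (other numbers -0.676 to 0.298) and mESC samples at 0.514 to 0.722 (other numbers -0.509 to -0.115). No samples were identical.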

Additional observations from a re-analysis of the deposited data

How the results depend on the processing

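At NFI locus peaks, the number higher in MEFs stayed within 1.5 times of its value under all 16 alternatives on each platform (56 to 89 on BGI, 48 to 84 on Illumina). The number higher in mESCs was 45 on each platform with gene bodies extended by 50 kb, and 13 on BGI and 14 on Illumina with a log2 fold change of at least 1. Without each replicate in turn, the number higher in MEFs was 75 to 77 (BGI) and 66 to 73 (Illumina), and that higher in mESCs 20 to 22 and 20 to 23. With down-sampled depths as library sizes, the all-peak median became 0.06 rather than -0.08 (BGI) and 0.09 rather than -0.03 (Illumina), 71 and 64 were higher in MEFs, 23 and 26 higher in mESCs, and the Nfic median on Illumina turned from -0.09 to 0.04.

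BGI against Illumina depended on the fit. In MEFs the 4 calls became 24 with the replicate block, 10 with the replicate block and GC offset, 10 with DESeq2 (of 81 tested), and 0 to 13 without a replicate (0 without library 1 or 2, with 9 and 8 unadjusted, and 13 without library 4). In mESCs the 3 calls became 21 with the replicate block, 10 with the replicate block and GC offset, 0 with DESeq2 (of 50 tested, 4 unadjusted), 1 with RLE size factors, and 0 to 1 without a replicate (0 without library 1 or 5, with 10 and 6 unadjusted, and 1 without library 3). The cause was not tested. The interaction gave 0 calls in its 9 alternatives, the replicate block included.

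No paired analysis was possible for mESC against MEF because the cell types share only the number 1. Of 539 values of named peaks under alternatives, 533 kept their direction and side of the threshold. On Illumina, leaving out a replicate moved the Nfix +84.2 kb peak from 0.02 to between -0.13 and 0.16 (below 0 without MEF 2 or 4 or mESC 1 or 5), and the Nfix +91.0 kb peak from 0.03 to between -0.070 and 0.099 (below 0 without mESC 5). None of these was called. On BGI the +84.2 kb peak lost its call without mESC 5. Counts for linked genes and shares of peaks on the reproducible lists stayed within 1.5 times or their interval.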
